A study of Mus musculus with 4 samples.

Results

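The core and naive pluripotency factors are 10 transcription factor genes, Pou5f1, Nanog, Sox2, Zfp42, Esrrb, Klf2, Klf4, Klf5, Tfcp2l1 and Tbx3, out of 18193 genes that the arrays measure through probe sets naming 1 gene. Every probe set that the array platform's annotation gives to a listed gene alone was taken, which gave 21 probe sets and left 0 that share a member with another gene. The arrays came from mouse embryonic stem cells of control genotype, labelled F/F, and of a Snai1 knockout. Snai1 encodes a zinc-finger repressor best known from epithelial-mesenchymal transition. The cells were grown as hanging-drop embryoid bodies, which are aggregates left to differentiate without added direction, and sampled on day 5. For teratomas, which are tumours of mixed tissues, cells of either genotype were placed under the skin of the hind limbs of male nude mice 6 weeks old, and the tumours were sampled at week 6, host cells included. Nude mice lack a thymus, so their own T cells are few. How the knockout was made, how many cell clones it stands for and whether tumours were pooled are details the sources used here do not give.

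Each of the 4 groups had 1 array, so no value has a replicate error and no test between groups was possible. Values are log2 expression values of RMA, a method that corrects background and normalizes arrays. They have no true zero, so the median of each array's non-control probe sets served as a floor, at 4.71 (control) and 4.73 (knockout) in embryoid bodies and 5.08 (control) and 5.04 (knockout) in teratomas. A difference is a log2 difference after values below the floor were raised to it, and 1 or more in either direction, which is 2-fold, was counted as higher or lower. With a single array of a pair under its floor, only a bound on the difference can be given. Differences between probe sets of the same gene had a pooled SD of 0.29 between genotypes in embryoid bodies and 0.28 in teratomas, which leaves out variation between cultures or tumours. Snai1 itself read 4.78 in control and 3.45 in knockout embryoid bodies, and was under the floor in teratomas of both genotypes, at 3.59 and 3.44, so its 1 probe set checks only the embryoid body labels, and weakly. Arrays correlated at 0.982 and 0.985 within embryoid bodies and teratomas, and at 0.864 to 0.880 between them. The 3' minus 5' signal of Gapdh, a measure of RNA integrity, was 0.17 in control and 0.10 in knockout embryoid bodies, and 0.65 in control against 0.40 in knockout teratomas. The tissue labels were matched by defining genes. Of 9 neuron genes, all were above the floor in both teratomas, against 5 in control and 4 in knockout embryoid bodies. Of 7 primitive streak genes on the array, which mark the start of gastrulation, 6 were above the floor in control and 7 in knockout embryoid bodies, against 2 in either teratoma.

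Pou5f1 (also called Oct4), Sox2 and Nanog form the core circuit of pluripotent cells, in which the factors bind one another's genes and keep them active. The naive factors are added to this circuit in the ground state of embryonic stem cells: Esrrb is an orphan nuclear receptor, Klf2, Klf4 and Klf5 are Krüppel-like zinc-finger proteins that share targets, Tfcp2l1 is a CP2-family factor that responds to the cytokine LIF, Tbx3 is a T-box repressor, and Zfp42 (Rex1) is a zinc-finger protein widely used as a marker of the naive state. On differentiation the naive factors are lost before Pou5f1. Several are used again in other tissues, Sox2 in neural progenitors, Klf2 and Klf4 in endothelium, and Klf4 and Klf5 in gut and skin epithelium.

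Promoter windows from RefSeq (build GRCm38.p6), covering 250 bases before to 50 bases after a transcription start, matched 8 of the 10 members in 11 windows, all but Klf5 and Tbx3. They were searched on both strands for CACCTG, the E-box that Snail proteins bind, and for the composite element bound jointly by OCT and SOX proteins, searched as TTTGCAT followed after 1 base by ACAATG. Windows of 4 members are shown, since Nanog, Zfp42 and Tfcp2l1 hold the E-box and Pou5f1, which was higher together with Nanog in the knockout teratoma, does not. Capitals mark these matches, 6 bases long for the E-box and 14 for the composite element. The windows are chr6:122707239-122707538 on the + strand for Nanog, chr8:43306960-43307259 on the - strand for Zfp42, chr1:118627695-118627994 on the + strand for Tfcp2l1 and chr17:35505782-35506081 on the + strand for Pou5f1.
Nanog: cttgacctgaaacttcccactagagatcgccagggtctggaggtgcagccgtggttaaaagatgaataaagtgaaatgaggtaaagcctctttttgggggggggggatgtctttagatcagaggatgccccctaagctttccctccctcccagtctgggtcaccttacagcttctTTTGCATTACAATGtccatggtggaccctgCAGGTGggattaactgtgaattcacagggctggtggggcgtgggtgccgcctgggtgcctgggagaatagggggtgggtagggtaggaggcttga
Zfp42: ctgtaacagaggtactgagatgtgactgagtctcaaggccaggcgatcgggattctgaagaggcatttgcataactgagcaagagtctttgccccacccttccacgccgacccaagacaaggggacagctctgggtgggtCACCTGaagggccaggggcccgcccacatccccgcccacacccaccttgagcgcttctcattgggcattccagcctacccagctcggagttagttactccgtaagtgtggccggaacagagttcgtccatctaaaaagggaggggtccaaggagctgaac
Tfcp2l1: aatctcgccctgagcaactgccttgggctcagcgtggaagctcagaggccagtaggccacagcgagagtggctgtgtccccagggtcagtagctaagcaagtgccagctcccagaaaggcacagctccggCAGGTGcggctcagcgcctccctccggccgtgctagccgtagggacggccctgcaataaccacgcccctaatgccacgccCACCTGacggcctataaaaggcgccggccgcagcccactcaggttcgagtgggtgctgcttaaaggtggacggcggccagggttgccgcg
Pou5f1: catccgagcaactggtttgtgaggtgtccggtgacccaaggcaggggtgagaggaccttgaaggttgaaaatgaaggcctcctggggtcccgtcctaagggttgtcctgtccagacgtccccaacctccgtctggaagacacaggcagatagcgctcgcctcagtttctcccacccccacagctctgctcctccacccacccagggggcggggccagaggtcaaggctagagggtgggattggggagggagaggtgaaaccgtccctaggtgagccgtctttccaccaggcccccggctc

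Among 32817 windows of this length, the composite element in these exact letters was present in 2, and both were overlapping windows of Nanog. No other letters or spacing were searched, so this does not show that the remaining windows lack such an element. The match in Nanog began at position -75 from the first of Nanog's annotated starts, with the E-box after it at -45. The E-box was present in 20.2% of all windows and in 4 of the 11 member windows, those of Nanog, Zfp42 and Tfcp2l1. The 2 overlapping Nanog windows hold the same E-box, so by gene 3 of 8 members hold it. Tfcp2l1 held it at -120 and at -40, and 2.88% of all windows held it at least 2 times. Zfp42 held it at -110. The octamer core TTTGCAT, which lies within the composite element, was found in Nanog, Sox2 and Zfp42 and in 4.63% of all windows. The box GGGNGTGG, a CACCC-type element of Krüppel-like factors, was found in Nanog, Pou5f1, Tfcp2l1 and Zfp42 and in 17.6% of all windows. These matches describe letters in the windows and say nothing of binding.

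The first question was whether the core circuit differs between genotypes in each setting. The core factors were all slightly higher in knockout embryoid bodies, by less than 2-fold, and Pou5f1 and Nanog were more than 2-fold higher in the knockout teratoma. Pou5f1 read 8.40 in control and 8.84 in knockout embryoid bodies, and 6.22 in the control and 7.52 in the knockout teratoma. It was highest in embryoid bodies and lowest in the control teratoma. Its log2 difference between genotypes was 0.44 in embryoid bodies and 1.31, or 2.47-fold, in teratomas. In these bulk samples, more cells of a type and more RNA per cell cannot be told apart.

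Nanog, the homeodomain factor that stabilises the undifferentiated state, read 6.56 (control) and 7.31 (knockout) in embryoid bodies and 6.00 (control) and 7.53 (knockout) in teratomas. The knockout teratoma thus had the highest Nanog value of the 4 arrays and the control teratoma the lowest. The log2 difference was 0.75 in embryoid bodies and 1.53, or 2.89-fold, in teratomas, and 99.2% of measured genes had a lower difference in teratomas. Sox2, the partner of Pou5f1 at joint elements, read 9.07 in control embryoid bodies, 9.49 in knockout embryoid bodies, 10.95 in the control teratoma and 11.33 in the knockout teratoma. Sox2 differed far more between settings than between genotypes, with log2 differences between genotypes of 0.42 in embryoid bodies and 0.37 in teratomas. Each core factor is read by 1 probe set, so none has a check by another.

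**Figure D1:**
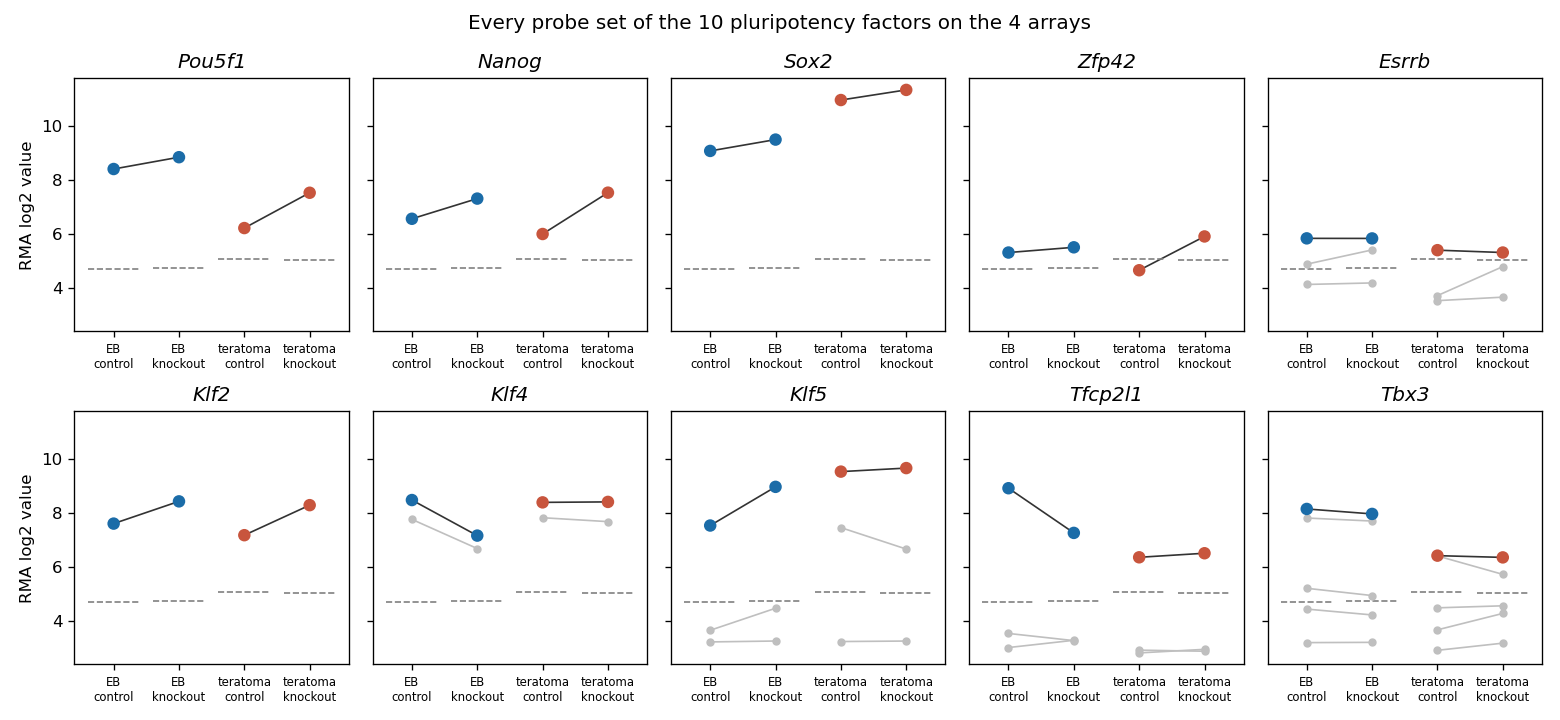
RMA log2 values (y axis) of all 21 probe sets of the 10 members on the 4 arrays (x axis; EB, embryoid body). Large points are the probe set with the highest mean for each gene, small grey points the others, and dashed marks each array's floor. Lines join control and knockout of a setting, and each point is 1 array. Pou5f1, Nanog, Zfp42 and Klf2 slope upwards in teratomas, whereas Klf4 and Tfcp2l1 slope downwards in embryoid bodies.

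The naive factors did not move as 1 group. In knockout embryoid bodies Klf5 was higher and Klf4 and Tfcp2l1 were lower by 2-fold or more, and in the knockout teratoma Klf2 was higher. Klf2 read 7.60 (control) and 8.42 (knockout) in embryoid bodies and 7.17 (control) and 8.28 (knockout) in teratomas. Both knockout arrays lay above both control arrays. Its log2 difference was 0.82 in embryoid bodies and 1.11, or 2.16-fold, in teratomas.

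Klf4, one of the reprogramming factors, read 8.47 in control embryoid bodies, 7.16 in knockout embryoid bodies, 8.39 in the control teratoma and 8.40 in the knockout teratoma. The knockout embryoid body array stood below the other three, which lay close together. The log2 difference was -1.31 in embryoid bodies, 2.49-fold lower, and 0.02 in teratomas, where the sign turned to -0.10 after quantile normalization. A second Klf4 probe set, also above the floor on all arrays, differed by -1.08 in embryoid bodies and -0.14 in teratomas.

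Klf5, which in embryonic stem cells shares targets with Klf2 and Klf4, went the other way. It read 7.53 (control) and 8.96 (knockout) in embryoid bodies and 9.52 (control) and 9.65 (knockout) in teratomas, so the control embryoid body array was the low one. The log2 difference was 1.43, or 2.69-fold, in embryoid bodies and 0.13 in teratomas. This rests on 1 probe set, whose name ends in _a_at. The label shared-sequence here pools the endings _a_at, _s_at and _x_at. It therefore does not show that this probe set reads a gene other than Klf5. A second Klf5 probe set lay below the floor on both embryoid body arrays, at 3.66 and 4.47, and differed by -0.79 in teratomas, against the sign of the first. With the mean of its probe sets the Klf5 log2 difference in embryoid bodies was 0.76, and without shared-sequence probe sets Klf5 was below the floor on both arrays.

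Tfcp2l1 showed the largest genotype difference of any member in either setting. It read 8.91 in control embryoid bodies, 7.26 in knockout embryoid bodies, 6.36 in the control teratoma and 6.51 in the knockout teratoma. The control embryoid body array was the highest, and both teratomas were lower than either embryoid body. The log2 difference was -1.65 in embryoid bodies, 3.14-fold lower, and 0.15 in teratomas. The 2 other Tfcp2l1 probe sets lay below the floor on every array, and averaged with them the difference in embryoid bodies was a bound of -0.42.

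Zfp42 was near the floor throughout, at 5.31 (control) and 5.51 (knockout) in embryoid bodies and 4.66 (control) and 5.91 (knockout) in teratomas. The control teratoma was the only array below its floor, so the knockout teratoma was at least 1.77-fold higher, a log2 bound of 0.83. Without a floor this difference was 1.25, which would add Zfp42 to the members counted as higher. The log2 difference in embryoid bodies was 0.19. Esrrb read 5.84 in control embryoid bodies, 5.83 in knockout embryoid bodies, 5.40 in the control teratoma and 5.31 in the knockout teratoma, also close to the floor, with log2 differences of -0.0026 and -0.09. A second Esrrb probe set had a log2 difference of 0.53 in embryoid bodies but was under the floor in teratomas, and the remaining one was under it on all 4 arrays. Tbx3 read 8.14 (control) and 7.96 (knockout) in embryoid bodies and 6.42 (control) and 6.35 (knockout) in teratomas. Its log2 differences between genotypes were -0.18 and -0.06, and a second Tbx3 probe set above the floor on all arrays differed by -0.11 and -0.68. Of the 21 member probe sets, 11 were above the floor on all 4 arrays and 6 on none.

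**Figure D2:**
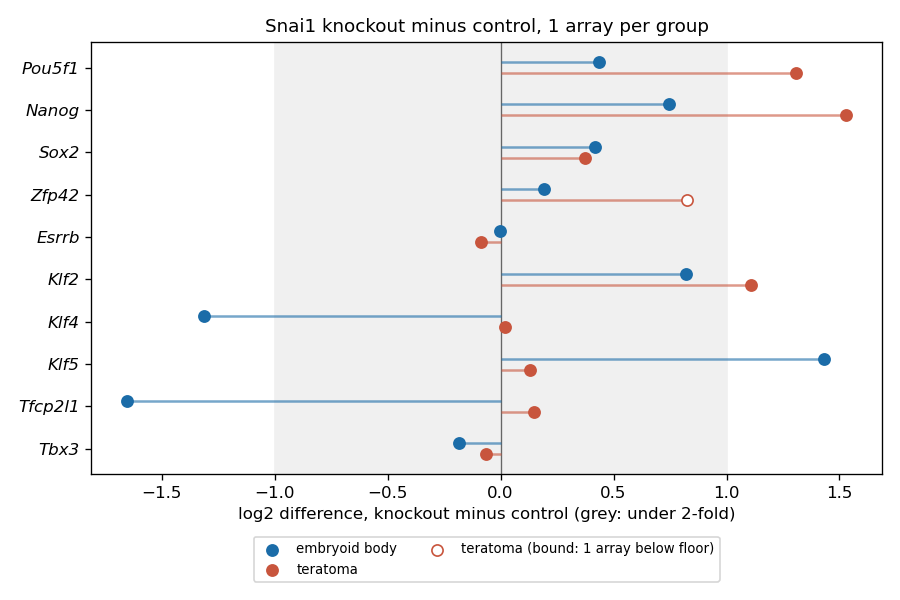
Log2 difference, Snai1 knockout minus control (x axis), of each member (y axis) in embryoid bodies and teratomas, 1 array per group and no error bars for that reason. The grey band is under 2-fold, and the open point is the bound of 0.83 for Zfp42. Klf4, Klf5 and Tfcp2l1 lie outside the band in embryoid bodies, and Pou5f1, Nanog and Klf2 in teratomas.

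Counted together, 1 member was at least 2-fold higher and 2 were at least 2-fold lower in knockout embryoid bodies, where 2.18% of 12282 measured genes were higher and 3.98% lower. In the knockout teratoma 3 members were higher and 0 lower, where 3.25% of 12197 measured genes were higher and 1.07% lower. After quantile normalization of the 4 arrays, 64.5% of all genes past 2-fold in teratomas were higher, against 75.2% as deposited. The median over the 10 members was 0.31 in embryoid bodies and 0.26 in teratomas, and over all measured genes 0.026 and 0.065. The median hides opposite movements in embryoid bodies, where 6 members lay above 0 and 4 below. In teratomas 8 lay above 0 and 2 below. Klf4 in teratomas, at 0.02, and Esrrb in embryoid bodies, at -0.0026, lay almost at 0. Since both medians over all measured genes were above 0, more genes lay above it than below, but their share was not counted. No member passed 2-fold in both settings, but how many of all measured genes did so was not counted, so this has no background. The teratoma difference less the embryoid body difference was 1.80 for Tfcp2l1, 1.33 for Klf4, -1.30 for Klf5, 0.87 for Pou5f1 and 0.78 for Nanog, and none of these was tested.

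**Figure D3:**
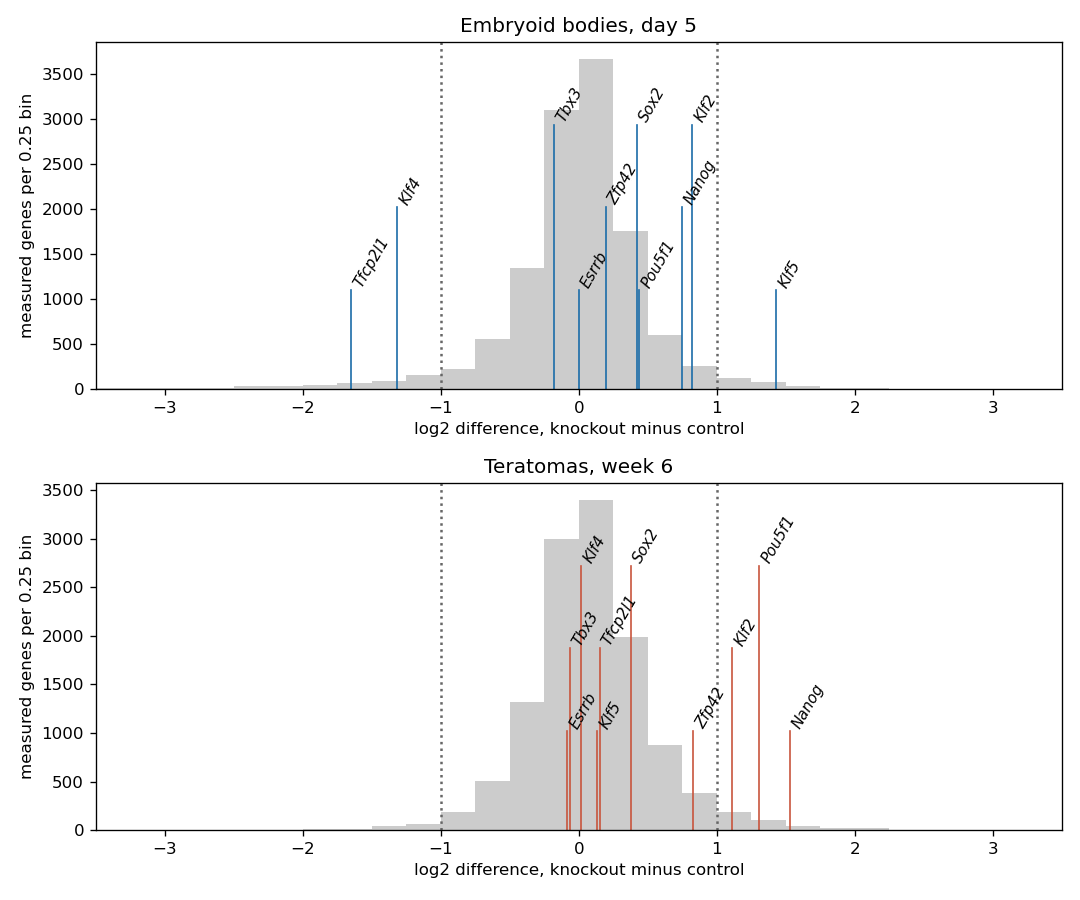
Histograms of the log2 difference, knockout minus control (x axis), over all measured genes, in bins of 0.25, with the number of genes on the y axis. Coloured lines place the 10 members at their own values, with heights set only for legibility, and dotted lines mark 2-fold. Tfcp2l1 and Klf4 lie in the lower tail and Klf5 in the upper tail in embryoid bodies, and Klf2, Pou5f1 and Nanog lie in the upper tail in teratomas.

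Other genes of the pluripotency network were read from a list of 37 without the members, of which 34 are on the array. In embryoid bodies 1 of 31 measured genes was higher and 0 lower, with 26 above 0 and a median of 0.24. The gene past 2-fold was Eras, an embryonic stem cell Ras protein, at 7.75 in control and 9.39 in knockout. Nr5a2, a nuclear receptor that can activate Pou5f1, lay just inside 2-fold at 6.23 against 5.26. In teratomas 7 of 28 measured genes were higher and 0 lower, although the median was only 0.18 with 11 genes below 0. Dppa3 (Stella), a chromatin protein of oocytes and germ cells, read 4.75 in the control and 7.22 in the knockout teratoma, at least 4.41-fold higher. Dppa2 was higher by at least 4.14-fold, its control value of 4.97 being under the floor. Fbxo15 was higher by at least 4.13-fold, from a control value of 5.05. Dppa4, the partner of Dppa2, was 3.06-fold higher, the Nodal co-receptor gene Tdgf1 3.04-fold, Dppa5a 2.97-fold and the RNA-binding protein gene L1td1 2.74-fold. Among the other network genes Utf1, a chromatin factor of pluripotent cells, differed by 0.91, Sall4 by 0.09 and Lin28a by 0.23, while Trim28 and Tet1 differed by -0.54 and -0.36.

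LIF, acting through its receptor and STAT3, sustains several naive factors in culture. Of 10 genes of this pathway, 1 was higher and 0 lower in each setting. In embryoid bodies the receptor subunit genes Lifr and Il6st differed by -0.60 and -0.95 and the feedback inhibitor gene Socs3 by -0.72, all short of 2-fold, and Junb by 1.32. In teratomas Socs3 differed by 1.06 and Stat3 by 0.64, and 8 of 10 lay above 0.

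Primed epiblast genes mark the state that follows the naive one after implantation, in which Pou5f1 and Sox2 are kept. In knockout embryoid bodies 7 of 11 were higher and 0 lower, with a median of 1.16. The growth factor gene Fgf5 read 6.95 in control and 9.13 in knockout, and Otx2, the head and epiblast homeobox gene, 8.18 and 10.34. Cer1 and Zic2 differed by 1.65 and 1.37. Of 7 primitive streak genes, all 7 were higher in knockout embryoid bodies, with a median of 1.72. In teratomas 0 of 9 measured epiblast genes were higher and 0 lower, with 6 below 0 and a median of -0.35. In embryoid bodies the core factors differed by 0.42 to 0.75, beside the epiblast median of 1.16. In teratomas the order was the other way, with Pou5f1 and Nanog at 1.31 and 1.53.

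Markers of other cells that use the members were read beside them. In embryoid bodies 5 of 10 endothelial genes were lower and 0 higher, led by Cldn5 at -2.87 and Tek at -2.45, and the log2 of the list's summed level was 11.34 in control and 10.60 in knockout. Its defining genes Pecam1 and Cdh5 differed by -1.15 and -1.62, and all 10 genes were above the floor on both arrays. Klf4 and Klf2 are both used in endothelium. In whole embryoid bodies they differed by -1.31 and 0.82, and their levels in endothelial cells were not measured. Visceral endoderm genes were lower for 5 of 9 and higher for 1, with a summed level of 14.37 in control and 12.60 in knockout, Afp at -4.64 and Ttr at -1.72. Gut epithelium genes were lower for 2 of 6 measured, with summed levels of 10.64 and 9.40, Vil1 at 0.06 and Cdx2 at -1.70. The fall in that sum is led by Tff3, at 9.58 in control and 5.47 in knockout. Stratified epithelium genes had 0 of 4 measured past 2-fold, with summed levels of 8.50 and 8.44 and the defining gene Trp63 below the floor on both arrays. Neural progenitor genes, among which Sox2 is used, were higher for 1 of 6 measured, Sox3 at 1.16, which is also in the epiblast list, with summed levels of 9.77 and 10.54. The part of these cells in the Klf4 and Tfcp2l1 differences was not tested. Of 5 kidney and ductal genes on the array, a tissue that uses Tfcp2l1, 1 was above the floor in embryoid bodies (Aqp2, at 4.91 and 4.80) and 0 in teratomas.

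In teratomas, 4 of 7 measured germ cell genes were higher and 0 lower, including Dppa3, which is also in the network list, the homeobox gene Rhox5 at 2.01, Dazl, which encodes a germ cell RNA-binding protein, at 1.89 and Stra8, which acts at meiotic entry, at 1.58. The list's summed level was 11.38 in the control and 11.84 in the knockout, and its defining gene Prdm1 differed by -0.44. Ddx4 and Sycp3, genes of later germ cells, lay below the floor in both tumours. Host leukocyte genes were higher for 5 of 8, with Ptprc at 2.12 and Ms4a1, below the floor in the control tumour, at a bound of 2.84, and Cd68 at 1.10. Their summed level was 11.67 in the control and 12.49 in the knockout. Neuron genes were higher for 5 of 9 and astrocyte genes for 4 of 6, with summed levels of 13.56 and 14.07, and of 12.84 and 13.83. Their defining genes differed by 1.86 for Syp, 1.33 for Snap25, 1.44 for Gfap and 0.36 for Aqp4. Gut epithelium genes were lower for 4 of 7 measured and higher for 0, with summed levels of 11.97 and 10.11. The lower genes were Gkn1 and Gkn2, each at -3.03, Tff1 at -1.83 and Tspan8 at -1.42, while Vil1 and Cdx2 were below the floor in both tumours. Visceral endoderm genes were lower for 3 of 7 and higher for 1, with summed levels of 10.67 and 11.92. That sum is led by Ttr at 2.55, while Afp differed by -2.84, Apoa1 by -1.44 and Sox17 by -1.42. Stratified epithelium genes had 0 of 6 past 2-fold. Endothelial genes had 0 of 10 past 2-fold, with summed levels of 11.05 and 10.96, Pecam1 at 0.59 and Cdh5 at -0.75. Neural progenitor genes had 8 of 9 below 0 and 1 lower, Neurog2 at -1.46, with summed levels of 13.27 and 13.04, whereas Sox2 itself differed by 0.37. Proliferation genes had all 7 below 0 and 0 past 2-fold, with summed levels of 11.93 and 11.25 and Mki67 at -0.97. Skeletal muscle genes were lower for 2 of 6, Myog and Myh3, with 4 above 0, a median of 0.43 and summed levels of 11.87 and 12.45. Cartilage genes had 0 of 3 measured past 2-fold, with summed levels of 9.35 and 9.44. How far cell makeup, or the smaller Gapdh 3' to 5' signal in the knockout tumour, contributes to the Pou5f1, Nanog and Klf2 values was not tested.

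**Figure D4:**
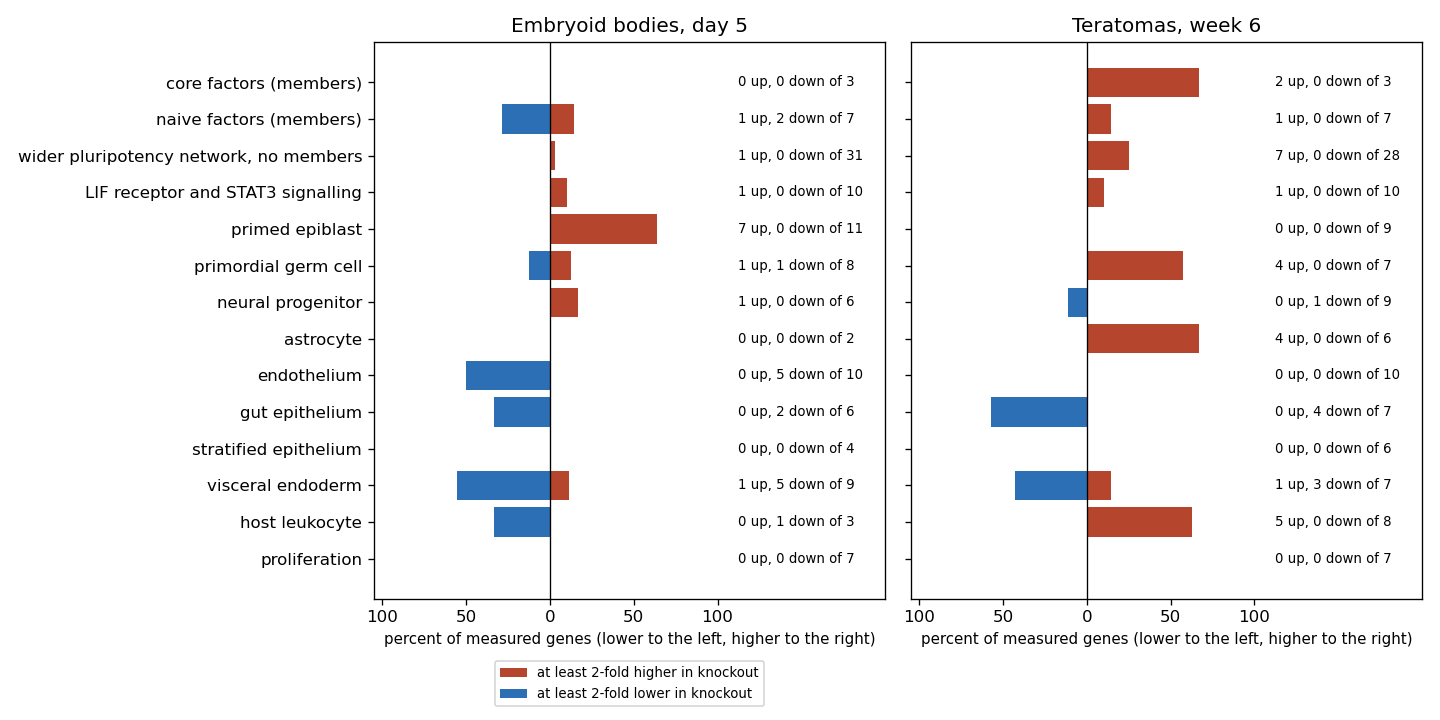
Share of each list's measured genes (x axis, percent) that were at least 2-fold higher (right) or lower (left) in the knockout, with counts printed beside each bar, for embryoid bodies and teratomas, 1 array per group. Primed epiblast genes are higher for 7 of 11 in embryoid bodies and 0 of 9 in teratomas, and the wider network for 1 of 31 and 7 of 28.

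The arrays also allow each genotype's teratoma to be set against its embryoid body. RNA of embryoid bodies was column-purified and that of teratomas extracted with Trizol, so setting and extraction cannot be told apart, and both comparisons share arrays with those between genotypes. In control cells Pou5f1, Tfcp2l1 and Tbx3 were lower in the teratoma and Sox2 and Klf5 higher. These were 3 lower and 2 higher of 10 members, where 19.0% of 12956 measured genes were lower and 16.2% higher. Pou5f1 was 4.54-fold lower, Tfcp2l1 5.87-fold and Tbx3 3.31-fold, while Sox2 was 3.68-fold and Klf5 3.98-fold higher. In knockout cells 2 were lower, Pou5f1 by 2.49-fold and Tbx3 by 3.05-fold, and 2 higher, Sox2 by 3.57-fold and Klf4 by 2.37-fold, where 19.8% of 12936 measured genes were lower and 19.8% higher. Sox2 and Tbx3 thus had nearly the same log2 differences in both genotypes, 1.88 and 1.84 for Sox2 and -1.73 and -1.61 for Tbx3. Tfcp2l1 differed by -2.55 in control and -0.75 in knockout cells, and Klf5 by 1.99 and 0.69. The Klf5 values rest on the _a_at probe set, pooled here with the shared-sequence ones. Its second probe set, below the floor in embryoid bodies, gave bounds of 2.74 and 1.93, so without shared-sequence probe sets Klf5 passed 2-fold in both genotypes and 3 members in place of 2 were higher in knockout cells.

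Nanog differed by -0.56 between control teratoma and embryoid body and by 0.22 in knockout cells, where the sign turned to -0.09 after each array was centred on its median. Klf4 in control cells, at -0.09, turned to 0.11 after quantile normalization. Centring moved the median of all genes from -0.18 to -0.55 in control and from -0.15 to -0.46 in knockout cells. The share of higher genes among those past 2-fold then went from 46.1% to 27.2% in control cells. In knockout cells 2566 higher and 2564 lower genes became 2036 and 3786. With this scaling Klf4 in knockout cells differed by 0.93, short of 2-fold, and Tfcp2l1 by -1.06, past it. For Tbx3 a second probe set gave -1.40 in control and -1.97 in knockout cells, while the mean of all 5 probe sets, most of them near or below the floor, gave bounds of -0.68 and -0.56. For Tfcp2l1 the mean of its probe sets gave a bound of -0.08 in control cells.

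**Figure D5:**
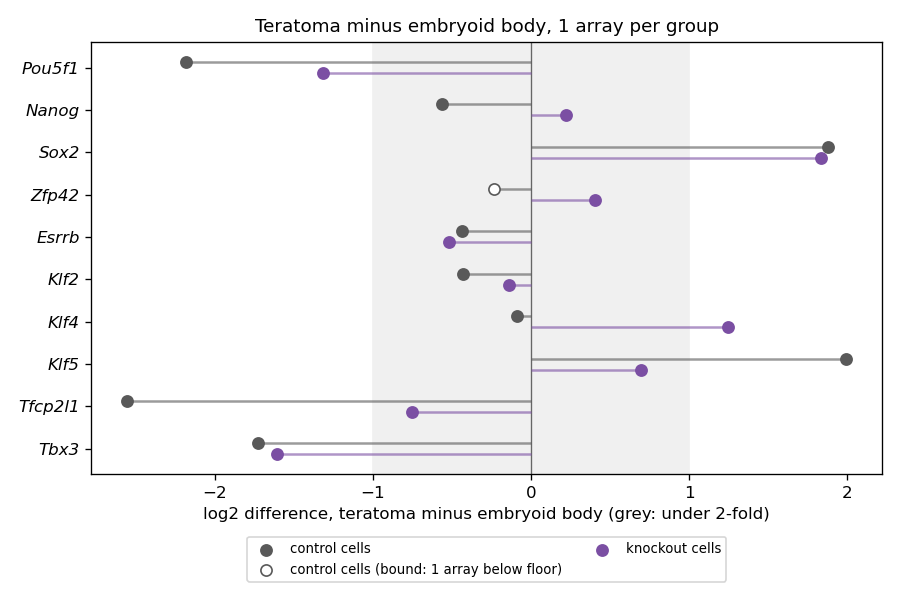
Log2 difference, teratoma minus embryoid body (x axis), of each member (y axis) in control and knockout cells, 1 array per group. The grey band is under 2-fold, and the open point is a bound with the control teratoma below its floor. Sox2 and Tbx3 have nearly equal values in both genotypes, whereas Tfcp2l1 and Klf4 differ between them. Klf5 is drawn from its _a_at probe set, at 1.99 and 0.69, and its second probe set gave bounds of 2.74 and 1.93.

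Finally, profiles over the 4 arrays were compared, each centred on its own mean, by their Euclidean distance in log2 units. With only 4 arrays this describes likeness of shape and nothing more. Among 12633 other named genes, the profile nearest to Nanog was that of Got1 at 0.23, followed by Klf2 at 0.32, Castor1 at 0.35, Zfp42 at 0.44 and Ptgds at 0.46. Zfp42 holds this place only through its control teratoma value, which is under the floor. With such values raised to the floor, an alternative chosen after seeing the data, Zfp42 lay 0.68 from Nanog, at rank 29, and Klf2 kept rank 2. For Pou5f1 the nearest were Ccn1 at 0.15, Psmb7 at 0.35, Spring1 at 0.42, Get3 at 0.43 and Mlf2 at 0.46, with no member among them. For Klf4 they were Ahnak at 0.04, Pdzrn3 and Bmp6 at 0.14, Efhd2 at 0.15 and Gpx8 at 0.16, of which Bmp6, below the floor in knockout embryoid bodies, was no longer among the 5 nearest once such values were raised to the floor. Ahnak, which encodes a very large scaffold protein, read 10.31 in control embryoid bodies, 9.05 in knockout embryoid bodies, 10.26 in the control teratoma and 10.29 in the knockout teratoma. Among members the next closest pair was Zfp42 and Klf2 at 0.48, which uses the same Zfp42 value under the floor. Sox2 and Klf5 followed at 0.90.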

How the data were processed

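Expression was measured on Affymetrix mouse arrays, 1 array for each of 4 groups. The authors deposited log2 values per probe set, made with the affy package and RMA per the submitters' processing notes. Software versions, the chip definition and the set of arrays that entered each normalization are not given in the sources used, and no scanner file was used here. Of 45101 probe sets, 64 were controls, and 34945 of the others named 1 gene. Each gene took its probe set with the highest mean, values below the array's median were raised to it, and differences were counted from 2-fold. Depth is not defined for arrays, and their number limits precision. With 1 array per group no test was run. Genes named are the members, up to 8 network genes per tissue past 2-fold, and the 5 nearest profiles of Pou5f1, Nanog and Klf4. Each other list gave up to 4 genes, with defining genes where a result turns on them. These were planned as the largest differences of a list, but some larger ones were left out. Genes outside this rule (Nr5a2, Utf1, Sall4, Lin28a, Trim28, Tet1, Ddx4 and Sycp3) were chosen after their values were seen. The members and lists were chosen with earlier results of these data known. Of the list entries, 11 had no probe set used here. Scripts ran in Python 3.11.15 with pandas 2.3.3 and numpy 2.4.6, and were tested on simulated data. Alternatives covered the probe set per gene, floor, scaling and fold threshold.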

Additional observations from a re-analysis of the deposited data

Results flagged for a closer look

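Among the members, Tfcp2l1 and Klf4 passed 2-fold in one setting and had the opposite sign in the other. In teratomas both differences were small, below the pooled SD of 0.28 between probe sets. The knockout minus control difference of Tfcp2l1 was -1.65 in embryoid bodies and 0.15 in teratomas, 1.80 log2 units apart, and that of Klf4 was -1.31 and 0.02, 1.33 apart. Seen by genotype, the teratoma minus embryoid body difference of Klf4 was -0.09 in control and 1.25 in knockout cells, which is the same gap of 1.33. The sign of Klf4 in teratomas differed between settings and was that of embryoid bodies at -0.10 after quantile normalization, -0.06 with the mean of probe sets and -0.14 for its second probe set. With 1 array per group these gaps were not tested.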

How the results depend on the processing

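In all 8 alternatives were run. No replicate could be left out, and no paired analysis was possible because each group has 1 array. Counts of members past 2-fold moved by over 1.5 times in 7 of 64 cases. Members higher in knockout embryoid bodies numbered 1 as deposited, 0 with the mean of probe sets and 0 without shared-sequence probe sets. At a threshold of 1.5-fold they numbered 3, while of 12282 measured genes 850 were higher, against 268 at 2-fold. With the mean of probe sets, members lower in knockout embryoid bodies went from 2 to 1, members lower in teratomas from 3 to 1 in control cells and from 2 to 1 in knockout cells. The lower members that came within 2-fold with the mean were Tfcp2l1 and Tbx3. With arrays centred on their medians, members higher in the teratoma of knockout cells went from 2 to 1, as Klf4 went from 1.25 to 0.93. Members lower there went from 2 to 3, a change not over 1.5 times, as Tfcp2l1 went from -0.75 to -1.06. Of 266 single member values, 253 stayed within the pooled SD between probe sets of their own comparison and 13 moved beyond it. That SD was 0.29 and 0.28 between genotypes. For teratoma minus embryoid body it was wider, 0.66 in control and 0.65 in knockout cells. The shift of Klf4 from 1.25 to 0.93 in knockout cells therefore counts as within it. Many could not move, because a member with 1 probe set, or above the floor throughout, keeps its value under several alternatives. Values that fell below the floor on both arrays under an alternative are not in the total. No member past 2-fold changed sign under any alternative that measured it. In teratomas Pou5f1 ranged from 1.12 to 1.41, Nanog from 1.13 to 1.68 and Klf2 from 1.06 to 1.15. In embryoid bodies Klf4 ranged from -1.34 to -1.20, Klf5 from 0.76 to 1.43 and Tfcp2l1 from -1.67 to -0.42. Zfp42 and Esrrb lie close to the floor, where the arrays resolve little.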
